A study of Mus musculus with 12 samples.

Results

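Collagen genes were read out in dorsal root ganglia, which hold the cell bodies of the sensory neurons of trunk and limbs, at 4 times of day. The members are the protein-coding genes with a mouse symbol made of Col, a number, the letter a and a number, whose mean level over the 12 libraries was at least 0.2 CPM (counts scaled to a common library total, the usual unit of level in RNA-seq). The rule found 39 genes among 44 collagen genes of any level in the table and 38594 Ensembl genes in all. The members just inside the limit were Col6a4 at 0.2 CPM and Col22a1 at 0.222 CPM, and the genes just outside it were Col17a1 at 0.0794 CPM and Col4a6 at 0.0694 CPM. Col6a4 lay on the limit itself, with a mean of 0.1996 CPM when library sizes were not scaled by TMM, the normalization of edgeR. The other 3 collagen genes left out, Col6a6, Col9a1 and Col20a1, averaged 0.0465, 0.0357 and 0.00423 CPM. All 39 members passed the filter on low counts and entered the fit of 25809 genes.

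The ganglia were lumbar, L1 to L6, from male C57BL/6J mice aged 6 to 12 weeks, called naive in the sample titles. They were taken at zeitgeber time (ZT, hours after lights on) 2, 8, 14 or 20, with 3 libraries at each time, and poly(A) RNA was sequenced. The groups differ in no genotype, agent or treatment that the labels name. The labels do not say whether each library is a separate animal, so p-values reflect only how much these libraries vary, and that variation may be technical. Library numbers in the labels rise with the time of day, so a batch of collection or preparation cannot be told apart from time. Deposited estimated counts summed to between 8.98e+07 and 1.25e+08 per library, which stands for about 2.40e+07 to 3.35e+07 read pairs. All 10 sensory neuron markers were in the fit, with a summed level of 14885 to 15918 CPM over the 12 libraries. The values behave as abundances per length, so levels of different genes are compared below on that scale, as CPM.

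Collagens are extracellular proteins whose chains wind around each other into a long helix. Fibrillar collagens assemble into the fibres of connective tissue, type IV collagen forms the sheet-like network of basement membranes, type VI forms beaded filaments beside cells, and FACITs (fibril-associated collagens with interrupted helices) decorate the surface of fibrils. In peripheral nerve and ganglia, fibroblasts and perineurial cells make the fibrous wrapping, while Schwann cells, satellite glia and endothelium rest on or are wrapped by basement membranes. Multiplexins and transmembrane collagens carry shorter helical stretches and sit in basement membrane zones or in the cell surface.

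Fibrillar collagens made up most of the collagen transcript level in the ganglia. The 11 fibrillar members summed to 305 CPM, 52.1% of the summed level of all 39 members, followed by 80.4 CPM (13.7%) in the 5 members of the basement membrane network. FACITs summed to 49.2 CPM, multiplexins to 43.9 CPM, beaded filament genes to 38.98 CPM, the 2 genes of no common class (Col28a1 and Col26a1) to 37.0 CPM and transmembrane collagens to 21.6 CPM. The short-chain network genes summed to 7.56 CPM, and the anchoring fibril gene Col7a1 stood at 2.09 CPM. Levels spanned a wide range: 9 members were above 20 CPM and held 71.3% of the summed level, 12 were between 5 and 20 CPM, 11 between 1 and 5 CPM and 7 below 1 CPM. The 9 highest were Col1a2 (110.4 CPM), Col1a1 (58.7 CPM), Col4a1 (49.4 CPM), Col5a3 (47.1 CPM), Col3a1 (37.9 CPM), Col28a1 (32.3 CPM), Col4a2 (28.3 CPM), Col16a1 (27.9 CPM) and Col15a1 (25.9 CPM). A higher mean than that of Col1a2 was found for 1580 genes of the table. Col6a4, the lowest member, rests on about 15.6 read pairs per library, against about 6128 for Col1a2, so the members below 1 CPM carry much counting error.

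**Figure D1:**
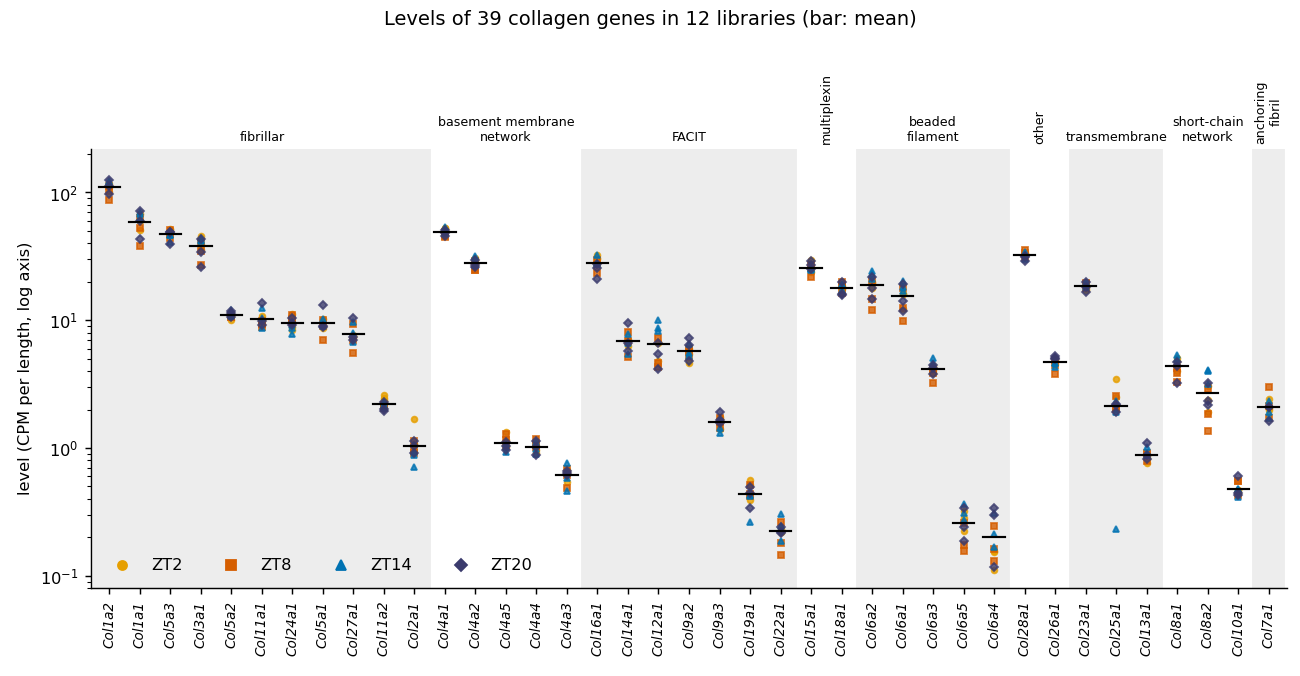
Level of each of the 39 collagen genes (CPM per length, log axis) in the 12 libraries, coloured by ZT2, ZT8, ZT14 and ZT20, with a bar at the mean of all libraries, grouped by collagen class. The points of a gene lie close together compared with the range between genes, from Col1a2 at 110.4 CPM to Col6a4 at 0.2 CPM, and the third ZT14 library of Col25a1 at 0.232 CPM stands below its other 11 libraries.

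No collagen gene passed a test for time of day. The summed level of the members was 597 ± 30.6 CPM at ZT2, 550.0 ± 51.3 CPM at ZT8, 620.4 ± 5.18 CPM at ZT14 and 577 ± 41.4 CPM at ZT20 (mean ± SD, n = 3 each). In the quasi-likelihood F test of edgeR for any difference between the 4 times, 0 of 39 members had an adjusted p under 0.05, against 13 of all 25809 genes (0.0504%), and the lowest adjusted p of a member was 0.691 (Col12a1). Limma-trend called 0 members (0.0736% of all genes), and so did DESeq2 (1.13% of all genes). At an unadjusted p under 0.05, edgeR listed 4 members, Col12a1, Col8a2, Col16a1 and Col4a1, which is 10.3% of them against 6.19% of all genes. The test of the 24-h component, a joint test of ZT14 against ZT2 and ZT20 against ZT8, called 0 members, against 0.0659% of all genes, with a lowest edgeR adjusted p of 0.945, and 1 member (2.56%) had an unadjusted p under 0.05, against 5.2% of all genes. That member was Col2a1. Here too limma-trend called 0 members (0.0659% of all genes), and DESeq2 called 0 (0.632% of all genes).

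The contrasts between opposite times gave the same counts of calls. For ZT14 against ZT2, edgeR called 0 members (0.0465% of all genes), limma-trend 0 (0.062%) and DESeq2 0 (0.411%). The lowest edgeR adjusted p was 0.817 (Col2a1), and 3 members had an unadjusted p under 0.05 against 5.19% of all genes. For ZT20 against ZT8, edgeR called 0 members (0.0232% of all genes), limma-trend 0 (0.0232%) and DESeq2 0 (0.263%). The lowest edgeR adjusted p was 0.936 (Col26a1), and only Col26a1 had an unadjusted p under 0.05, against 5.28% of all genes. For ZT2 and ZT14 against ZT8 and ZT20, the alternation with a period of 12 h, edgeR called 0 members and 0 of all genes (0.0%), limma-trend 0 members (0.0%) and DESeq2 0 (0.484%). At an unadjusted p under 0.05 there were 6 members (15.4%), against 7.44% of all genes. Those 6, Col4a1, Col4a2, Col16a1, Col6a2, Col12a1 and Col8a1, all had higher fitted levels at ZT2 and ZT14, and the lowest adjusted p among them was 0.519 (Col16a1). The median member differed by 0.04 on the log2 scale for ZT14 over ZT2 and by 0.08 for ZT20 over ZT8, with 22 and 26 of 39 members above 0. Over all genes the medians were -3.1e-05 and 0.0016, with 12886 and 13015 of 25809 above 0. The median 24-h amplitude, the fitted log2 distance from mean to peak, was 0.10 in the members and 0.10 over all genes, and the median SD between libraries of 1 time was 0.20 in the members and 0.19 over all genes on the log2 scale. A missed threshold does not show equal levels. Among the 21 members at 5 CPM or more, the 95% intervals of the log2 differences ran from -0.48 to 1.05 for ZT14 over ZT2 and from -0.48 to 0.65 for ZT20 over ZT8.

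**Figure D2:**
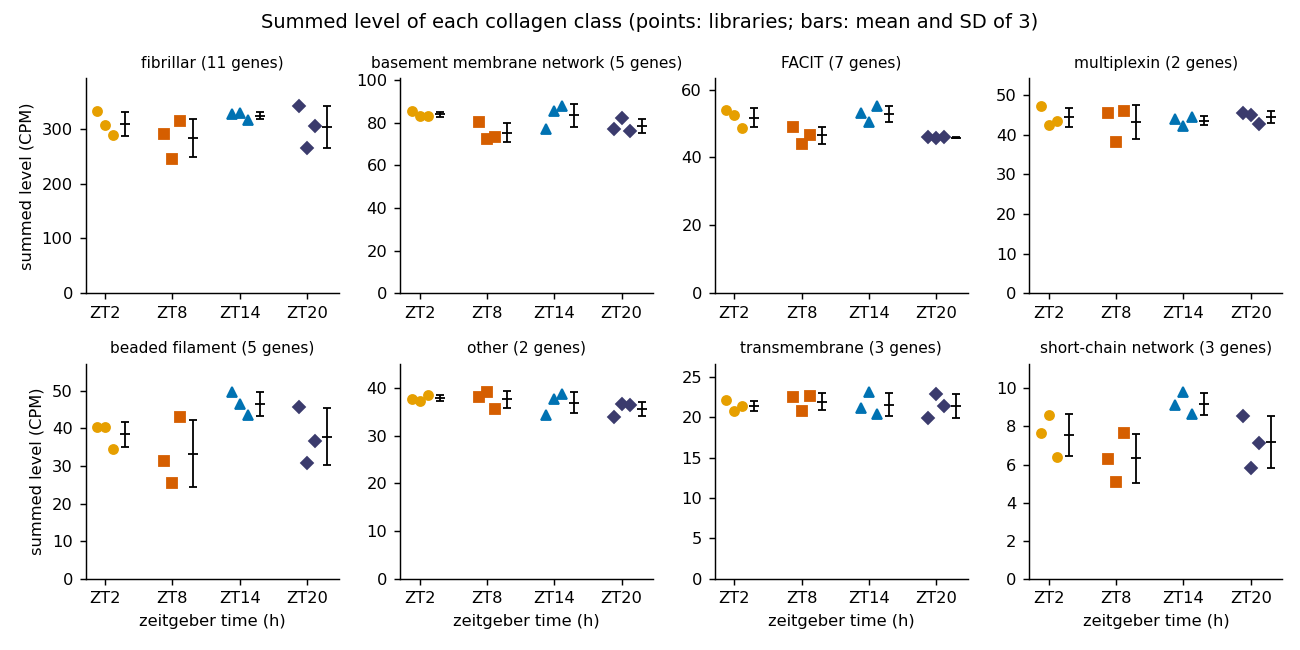
Summed level (CPM) of 8 collagen classes at ZT2, ZT8, ZT14 and ZT20, with 1 point per library and a bar for the mean and SD of 3 libraries. Fibrillar sums were 309 ± 21.5 CPM at ZT2, 283 ± 34.9 CPM at ZT8, 324 ± 6.36 CPM at ZT14 and 304 ± 37.9 CPM at ZT20, and beaded filament sums ranged from 25.5 CPM in a ZT8 library to 49.6 CPM in a ZT14 library.

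Type I and type III collagens form the bulk of connective tissue fibres, and their 3 genes varied together between libraries. Coordinates here and below are those of GENCODE M21 on build GRCm38.p6. Col1a2, the type I alpha 2 chain (chr6:4504814-4541544), had 117, 110.2 and 100.3 CPM at ZT2, 103, 86.5 and 113 CPM at ZT8, 120.2, 122 and 116 CPM at ZT14, and 126, 98.0 and 112 CPM at ZT20. Col1a1, the type I alpha 1 chain (chr11:94936224-94953042), had 67.4, 59.4 and 50.6 CPM at ZT2, 52.6, 38.0 and 63.2 CPM at ZT8, 69.8, 67.4 and 62.7 CPM at ZT14, and 71.0, 43.1 and 59.6 CPM at ZT20. Col3a1, the chain of type III collagen (chr1:45311538-45349706), had 45.8, 38.7 and 35.2 CPM at ZT2, 34.7, 27.1 and 40.8 CPM at ZT8, 42.0, 43.7 and 42.2 CPM at ZT14, and 43.6, 26.2 and 34.4 CPM at ZT20. In all 3 genes the second libraries of ZT8 and ZT20 were the lowest, and in each gene ZT14 overlapped with ZT2 and ZT20 with ZT8. The fitted log2 difference for ZT14 over ZT2 was 0.13 ± 0.10 for Col1a2, 0.17 ± 0.20 for Col1a1 and 0.10 ± 0.18 for Col3a1 (± SE), all within the spread between libraries.

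The promoter windows of Col1a2 and Col3a1 are shown because both genes are high and vary together across libraries. They come from RefSeq on build GRCm38.p6 and hold 250 bases before and 50 after a transcript start (Col1a2 on the plus strand at chr6:4505368-4505667, Col3a1 on the plus strand at chr1:45311288-45311587). The RefSeq start of Col1a2 lies inside the gene span of the annotation used for levels. Capitals mark, on either strand, the letters of 4 motifs searched: the TATA box (TATAAA), the CCAAT box (CCAAT), the GC box (GGGCGG) and the canonical E-box (CACGTG). No match overlapped another in the windows printed here.
Col1a2: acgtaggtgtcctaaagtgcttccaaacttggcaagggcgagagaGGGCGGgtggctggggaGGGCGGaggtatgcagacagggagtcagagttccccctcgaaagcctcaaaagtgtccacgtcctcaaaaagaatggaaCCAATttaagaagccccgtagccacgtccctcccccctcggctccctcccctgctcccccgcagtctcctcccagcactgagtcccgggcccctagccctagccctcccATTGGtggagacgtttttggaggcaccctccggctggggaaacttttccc
Col3a1: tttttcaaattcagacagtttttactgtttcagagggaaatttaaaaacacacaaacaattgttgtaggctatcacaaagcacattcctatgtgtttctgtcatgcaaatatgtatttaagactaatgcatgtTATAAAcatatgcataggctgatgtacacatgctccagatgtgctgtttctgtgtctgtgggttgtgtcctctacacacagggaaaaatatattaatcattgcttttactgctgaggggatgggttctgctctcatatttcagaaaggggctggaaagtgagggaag
The Col1a2 window held 2 CCAAT and 2 GC boxes and no TATA box, while the Col3a1 window held 1 TATA box and none of the other 3 motifs. Of the 39 members, 30 had a window in the table, 32 windows in all. The TATA box was in 4 of the 32 windows (13.6% of all 32851 windows), the CCAAT box in 11 (37.4% of all), the GC box in 21 (35.7% of all) and the canonical E-box in 0 (7.15% of all). A match is a description of letters, not of binding.

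Type V and type XI collagens are minor fibrillar chains that nucleate and limit the width of type I and type II fibrils. Col5a3, the third chain of type V, was the highest of them at 47.1 CPM, above the 11.0 CPM of Col5a2 and the 9.44 CPM of Col5a1. Col5a3 (chr9:20770050-20815067) had 51.7, 49.1 and 51.0 CPM at ZT2, 51.0, 47.1 and 44.2 CPM at ZT8, 40.7, 46.1 and 46.8 CPM at ZT14, and 39.5, 48.7 and 49.1 CPM at ZT20. All 3 ZT14 libraries lay below all 3 ZT2 libraries, with a log2 difference of -0.18 ± 0.09 (± SE, edgeR adjusted p = 0.966). Col5a2 (chr1:45374321-45503282), which lies 24614 bases from Col3a1, had 10.8, 11.0 and 10.04 CPM at ZT2, 10.5, 11.0 and 10.6 CPM at ZT8, 10.8, 11.4 and 12.0 CPM at ZT14, and 11.4, 10.7 and 11.7 CPM at ZT20. Its highest library was 1.19 times its lowest, and its SD within a time, 0.06 on the log2 scale, was the smallest of the 39 members. Col5a1 (chr2:27886425-28039514) had 10.1, 8.62 and 9.09 CPM at ZT2, 9.06, 6.96 and 9.95 CPM at ZT8, 10.3, 9.29 and 8.97 CPM at ZT14, and 13.1, 8.81 and 9.04 CPM at ZT20. A library of ZT20 was the highest and one of ZT8 the lowest, and the times overlapped.

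Col11a1, the main chain of type XI (chr3:114030540-114220718), had 9.24, 10.1 and 10.7 CPM at ZT2, 8.91, 9.89 and 9.41 CPM at ZT8, 12.4, 10.3 and 8.68 CPM at ZT14, and 13.7, 9.23 and 9.95 CPM at ZT20. All its times overlapped. Its partner Col11a2 averaged 2.22 CPM, with 2.18 ± 0.118 CPM at ZT14 and 2.48 ± 0.103 CPM at ZT2 (SD, n = 3 each). These 2 times did not overlap, and the log2 difference was -0.18 ± 0.10 (± SE). Col24a1 and Col27a1, fibrillar collagens of developing bone and cartilage, averaged 9.51 and 7.80 CPM.

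Col2a1, the chain of type II collagen known best from cartilage (chr15:97975602-98004695), had the lowest p of the members in the test of a 24-h component. It had 1.68, 1.06 and 1.08 CPM at ZT2, 0.921, 0.957 and 1.13 CPM at ZT8, 0.929, 0.710 and 0.881 CPM at ZT14, and 0.919, 1.04 and 1.13 CPM at ZT20. All 3 ZT14 libraries lay below all 3 ZT2 libraries, by -0.60 ± 0.21 on the log2 scale (± SE, edgeR adjusted p = 0.817), and the first ZT2 library was the highest of the 12. Its 24-h amplitude of 0.30 was 0.18 without that library. The gene rests on about 54.6 read pairs per library. Of the 12 listed markers of bone and cartilage, 11 were found and 10 were in the fit. The 11 summed to 83.3 to 91.0 CPM at ZT14 and 84.9 to 91.1 CPM at ZT2, with Bglap and Matn3 below 0.2 CPM. Their score, the mean log2 CPM of the list, was 0.63 to 0.76 at ZT14 and 0.77 to 0.88 at ZT2 and did not overlap, and their part in the level of Col2a1 was not tested.

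The basement membrane collagens Col4a1 and Col4a2 varied little between libraries, and the other type IV genes were low. Col4a1 (chr8:11198423-11312826, minus strand) had 52.3, 52.8 and 50.6 CPM at ZT2, 49.0, 44.6 and 45.6 CPM at ZT8, 47.9, 51.9 and 53.5 CPM at ZT14, and 48.0, 50.6 and 46.0 CPM at ZT20. Col4a2 (chr8:11312805-11449287, plus strand) had 30.6, 27.8 and 29.6 CPM at ZT2, 28.9, 24.9 and 24.9 CPM at ZT8, 26.9, 30.8 and 31.7 CPM at ZT14, and 26.3, 29.4 and 27.2 CPM at ZT20. The ZT8 libraries of Col4a1 all lay below its ZT2 libraries, and those of Col4a2 overlapped with ZT2. For Col4a1 the mean of ZT2 and ZT14 was 0.12 ± 0.04 above that of ZT8 and ZT20 on the log2 scale (± SE, edgeR unadjusted p = 0.00895, adjusted p = 0.525), and for Col4a2 the difference was 0.14 ± 0.06 (unadjusted p = 0.0331, adjusted p = 0.626). The highest library of Col4a1 was 1.199 times the lowest. Col4a5, Col4a4 and Col4a3, which form the networks of the kidney glomerulus and some other basement membranes, averaged 1.09, 1.02 and 0.612 CPM.

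Type IV genes lie in head-to-head pairs that share a promoter region. The annotated spans of Col4a1 and Col4a2 overlap by 22 bases on opposite strands of chromosome 8, Col4a4 and Col4a3 lie 71 bases apart on chromosome 1, and Col4a6 and Col4a5 lie 1308 bases apart on chromosome X. The sources used here do not say whether counting used strand, so reads from the shared ends of such pairs may not be told apart. The windows of Col4a1 (minus strand, chr8:11312777-11313076) and Col4a2 (plus strand, chr8:11312555-11312854) are shown because they share 78 bases, and the transcripts of both genes varied together across libraries. The sequences are RefSeq, GRCm38.p6, with the motifs above in capitals.
Col4a1: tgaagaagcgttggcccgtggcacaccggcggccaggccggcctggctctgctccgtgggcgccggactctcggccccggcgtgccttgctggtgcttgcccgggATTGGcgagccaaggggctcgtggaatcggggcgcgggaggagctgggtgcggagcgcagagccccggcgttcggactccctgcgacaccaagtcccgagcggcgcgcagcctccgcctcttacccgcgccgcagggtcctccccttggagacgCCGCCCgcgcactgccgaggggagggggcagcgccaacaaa
Col4a2: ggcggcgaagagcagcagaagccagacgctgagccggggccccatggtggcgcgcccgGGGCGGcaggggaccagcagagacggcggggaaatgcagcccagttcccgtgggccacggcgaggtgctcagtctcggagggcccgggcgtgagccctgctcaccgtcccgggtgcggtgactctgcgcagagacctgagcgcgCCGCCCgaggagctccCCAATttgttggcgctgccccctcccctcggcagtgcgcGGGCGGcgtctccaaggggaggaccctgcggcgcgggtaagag
Counting both strands, the Col4a1 window held 1 CCAAT box and 1 GC box, and the Col4a2 window held 1 CCAAT box and 3 GC boxes. Neither held TATAAA or CACGTG.

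The beaded filament genes of type VI collagen were higher at ZT14 than at ZT2 in most members, without passing a test. Col6a2, the alpha 2 chain (chr10:76595762-76623630), had 19.7, 19.8 and 17.9 CPM at ZT2, 14.6, 12.0 and 20.4 CPM at ZT8, 24.2, 22.8 and 21.0 CPM at ZT14, and 21.8, 14.7 and 17.7 CPM at ZT20. Col6a1, the alpha 1 chain (chr10:76708792-76726168), had 16.0, 16.0 and 12.3 CPM at ZT2, 12.4, 9.92 and 18.0 CPM at ZT8, 20.4, 18.3 and 16.8 CPM at ZT14, and 19.1, 11.8 and 14.2 CPM at ZT20. Both were lowest in the second ZT8 library and highest in the first ZT14 library, and at ZT8 the third library stood above the other 2. The ZT14 libraries of both lay above their ZT2 libraries. Col6a3, the long alpha 3 chain, had 4.71 ± 0.364 CPM at ZT14 and 4.11 ± 0.251 CPM at ZT2 (SD, n = 3 each). The log2 difference for ZT14 over ZT2 was 0.24 ± 0.18 for Col6a2, 0.33 ± 0.22 for Col6a1 and 0.20 ± 0.11 for Col6a3 (± SE), each under 2 SE and past no adjusted threshold in edgeR. Over the 5 members of the class the median was 0.24 for ZT14 over ZT2 and 0.20 for ZT20 over ZT8, with 5 of 5 above 0 in both. Above 0 were 22 and 26 of all 39 members, and 12886 and 13015 of all 25809 genes. The 5 are not separate observations: Pearson's r over the 12 libraries was 0.96 for Col6a1 and Col6a2 and 0.81 for Col6a3 and Col6a1. Col6a5 and Col6a4, which lie 28810 bases apart on chromosome 9, averaged 0.261 and 0.2 CPM, on about 25.1 and 15.6 read pairs per library, so their directions in the counts above and below carry much counting error.

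Libraries of ZT14 and ZT2 did not overlap in 10 members. Between ZT14 and ZT2, 7 of 39 members (17.9%) had all 3 ZT14 libraries above all 3 ZT2 libraries, against 5.77% of all genes, and 3 members (7.69%) had them all below, against 5.40% of all genes. The 7 were Col6a1, Col6a2, Col6a3, Col6a4, Col12a1, Col8a2 and Col13a1, and the 3 were Col5a3, Col11a2 and Col2a1. Between ZT20 and ZT8, 1 member, Col26a1 (2.56%), was above, against 5.31% of all genes, and 0 were below, against 4.54% of all genes. The fibroblast score, the mean log2 CPM of 10 fibroblast markers, was 4.55, 4.41 and 4.37 in the ZT14 libraries, against 4.24, 4.18 and 4.04 in the ZT2 libraries, so it did not overlap between these times either. Of the 13 marker scores, 6 did not overlap between ZT14 and ZT2. Higher at ZT14 were also the adipocyte score (-0.76 to 0.61, against -1.58 to -0.93 at ZT2), the perineurial score (4.21 to 4.33, against 4.03 to 4.12 at ZT2) and the myelinating Schwann cell score (7.81 to 7.88, against 7.72 to 7.81 at ZT2). Lower at ZT14 were the satellite glia score (7.39 to 7.45, against 7.49 to 7.61 at ZT2) and the bone and cartilage score (0.63 to 0.76, against 0.77 to 0.88 at ZT2). By summed CPM, the adipocyte and perineurial lists did not overlap between these times either. The fibroblast, myelinating Schwann cell, satellite glia and bone and cartilage lists did overlap. Satellite glia sums, for example, were 5029 to 6658 CPM at ZT14 and 5647 to 5719 CPM at ZT2. The satellite glia markers did not all go the same way. Their median log2 difference for ZT14 over ZT2 was 0.04, and Fabp7, 1 of the 8, was called lower at ZT14 by edgeR. The part of the cell types of these 6 scores in the levels of the collagen members was not tested. In bulk tissue, fewer cells of a type and less RNA per cell cannot be told apart.

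Among the FACITs, Col16a1 was the highest and Col12a1 varied most with time. Col12a1, a fibril surface collagen of tendon and other dense connective tissue (chr9:79598991-79718831), had 6.68, 6.80 and 4.78 CPM at ZT2, 4.66, 4.33 and 7.24 CPM at ZT8, 8.63, 10.1 and 8.23 CPM at ZT14, and 6.69, 5.43 and 4.18 CPM at ZT20. All 3 ZT14 libraries were above every library of the other times. Its log2 difference for ZT14 over ZT2 was 0.56 ± 0.22 (± SE, edgeR unadjusted p = 0.0261, adjusted p = 0.923), and the test of any difference between times gave an unadjusted p of 0.0163 and an adjusted p of 0.691. Its 24-h amplitude was 0.28, and 0.11 with the fibroblast score as a covariate. The amplitude did not fall in every member with that covariate. It went from 0.158 to 0.132 in Col6a2, from 0.123 to 0.145 in Col1a1, from 0.075 to 0.129 in Col15a1 and from 0.299 to 0.345 in Col2a1. In the edgeR test of the 24-h component with that covariate, 10 of 39 members had an unadjusted p under 0.05, against 10.4% of all genes. The part of fibroblasts in these amplitudes was not tested.

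Col16a1, a FACIT of several connective tissues (chr4:130047840-130099283), had 32.4, 30.4 and 30.7 CPM at ZT2, 29.4, 27.0 and 23.3 CPM at ZT8, 27.8, 27.7 and 32.5 CPM at ZT14, and 20.9, 27.4 and 25.5 CPM at ZT20. The ZT8 and ZT20 libraries all lay below the ZT2 libraries, and the mean of ZT2 and ZT14 was 0.24 ± 0.08 above that of ZT8 and ZT20 on the log2 scale (± SE, edgeR unadjusted p = 0.00858, adjusted p = 0.519). Col9a2, a type IX chain (chr4:121039385-121055322), had 5.41, 6.00 and 4.62 CPM at ZT2, 5.70, 5.12 and 5.93 CPM at ZT8, 6.50, 5.22 and 5.57 CPM at ZT14, and 6.35, 4.78 and 7.28 CPM at ZT20, with overlap between all times. Type IX is a trimer of Col9a1, Col9a2 and Col9a3 in cartilage. Here Col9a2 averaged 5.71 CPM and Col9a3 1.59 CPM, while Col9a1 was outside the members at 0.0357 CPM. Col14a1, a relative of Col12a1, averaged 6.83 CPM, and Col19a1 and Col22a1 averaged 0.434 and 0.222 CPM.

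The short-chain network genes Col8a1 and Col8a2 encode the chains of type VIII collagen, found in vessel walls and in the cornea. Col8a2 (chr4:126286793-126314330) had 2.39, 3.04 and 1.90 CPM at ZT2, 1.85, 1.36 and 2.87 CPM at ZT8, 4.05, 3.98 and 3.15 CPM at ZT14, and 3.198, 2.18 and 2.34 CPM at ZT20. The ZT14 libraries were above those of ZT2 and ZT8, by 0.61 ± 0.26 over ZT2 on the log2 scale (± SE, edgeR unadjusted p = 0.0403, adjusted p = 0.938). With the fibroblast score as a covariate its 24-h amplitude was 0.21, against 0.35 without it. Col8a1 (chr16:57624258-57754737) had 4.83, 5.06 and 4.02 CPM at ZT2, 3.87, 3.28 and 4.23 CPM at ZT8, 4.66, 5.35 and 5.00 CPM at ZT14, and 4.74, 3.21 and 4.35 CPM at ZT20. Its second ZT8 and ZT20 libraries were the lowest, and ZT14 overlapped with ZT2. Col10a1, the collagen of hypertrophic cartilage, averaged 0.480 CPM.

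**Figure D3:**
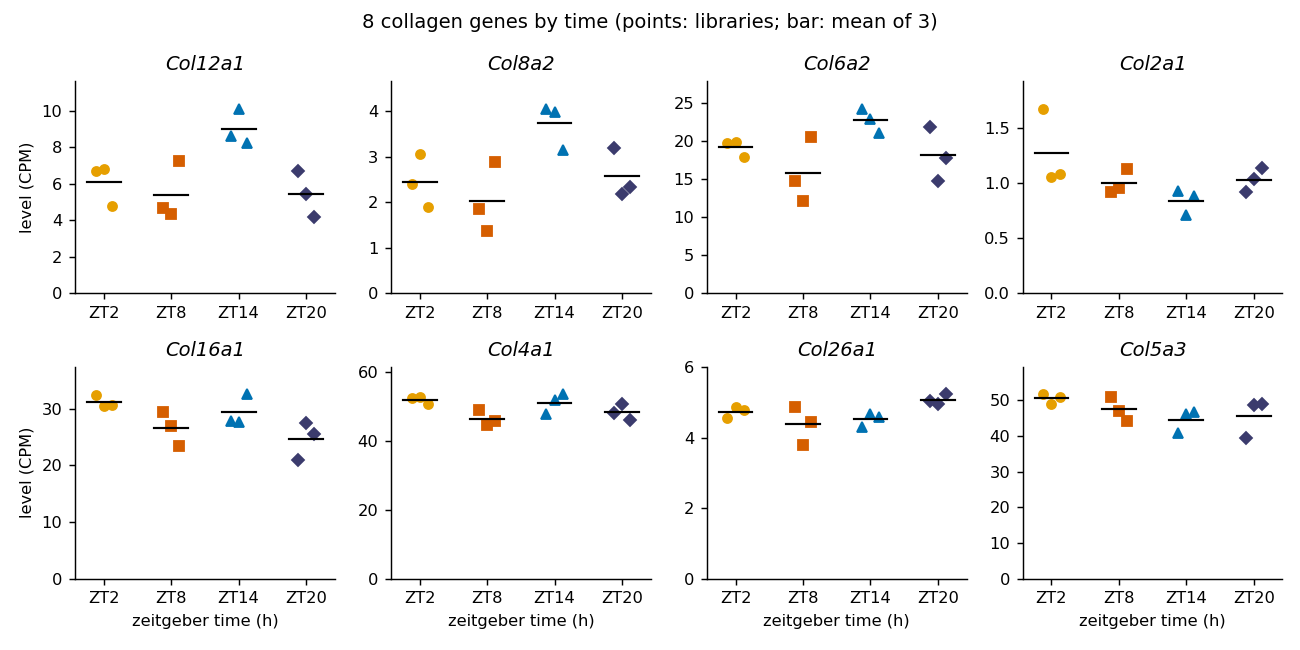
Level (CPM) of 8 collagen genes at ZT2, ZT8, ZT14 and ZT20, with 1 point per library and a bar at the mean of 3. The 3 ZT14 libraries of Col12a1, at 8.23 to 10.1 CPM, are above all others, while Col4a1 stays between 44.6 and 53.5 CPM in all 12 libraries.

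In the remaining classes, Col15a1, Col18a1 and Col28a1 varied little between libraries, and Col25a1 varied most of all 39 members. Col15a1, a multiplexin of basement membrane zones in nerve, muscle and vessels (chr4:47208161-47313167), had 29.4, 24.02 and 26.0 CPM at ZT2, 25.6, 21.8 and 27.0 CPM at ZT8, 25.1, 24.9 and 25.1 CPM at ZT14, and 29.3, 25.1 and 26.9 CPM at ZT20. Col18a1, the multiplexin whose end fragment is endostatin, averaged 18.0 CPM. The highest library of Col15a1 was 1.35 times its lowest, and that of Col18a1 1.26 times. Col28a1, a collagen described around glia of mouse peripheral nerve (chr6:7997808-8192617), had 33.0, 32.5 and 33.8 CPM at ZT2, 33.3, 35.3 and 31.2 CPM at ZT8, 30.1, 33.1 and 34.1 CPM at ZT14, and 28.8, 31.6 and 31.2 CPM at ZT20. It was the sixth highest member, and its highest library was 1.23 times its lowest. Its ZT20 libraries lay below its ZT2 libraries and overlapped with those of ZT8. Col26a1 had 5.08 ± 0.137 CPM at ZT20 and 4.38 ± 0.542 CPM at ZT8 (SD, n = 3 each), a log2 difference of 0.21 ± 0.09 (± SE, edgeR unadjusted p = 0.0381, adjusted p = 0.936).

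Col23a1, the highest transmembrane collagen (chr11:51289920-51583918), had 18.8, 17.8 and 17.2 CPM at ZT2, 19.7, 17.9 and 19.2 CPM at ZT8, 18.3, 19.9 and 19.2 CPM at ZT14, and 16.6, 20.1 and 18.4 CPM at ZT20, with overlap between all times. Col25a1, a neuronal transmembrane collagen, averaged 2.13 CPM and had 1 library far from the rest: ZT14 replicate 3 was at 0.232 CPM, and the other 11 libraries were between 1.91 and 3.44 CPM. Its SD within a time was 0.92 on the log2 scale. Its log2 difference for ZT14 over ZT2 was -0.86, and -0.35 without that library, and its amplitude was 0.43, and 0.18 without it. Col13a1, known at the neuromuscular junction, averaged 0.888 CPM. Col7a1, the collagen of anchoring fibrils in skin (chr9:108953586-108984875), had 2.05, 1.98 and 2.41 CPM at ZT2, 2.98, 2.12 and 1.73 CPM at ZT8, 1.72, 1.92 and 2.31 CPM at ZT14, and 1.62, 2.09 and 2.11 CPM at ZT20. Its times overlapped, and the highest value was in the first ZT8 library.

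Levels were also set against each other within 10 pairs of chains, 9 of chains of 1 collagen type and 1 of type III with type I, whose chains form separate molecules. In 4 of the 10 pairs (Col1a1 and Col1a2, Col3a1 and Col1a1, Col4a1 and Col4a2, Col6a1 and Col6a2) the ratio varied less between libraries than either gene. The level of Col4a1 was 1.75 ± 0.073 times that of Col4a2 over the 12 libraries (SD), a coefficient of variation of 4.16%. Col6a1 was at 0.816 ± 0.050 of Col6a2 and Col1a1 at 0.528 ± 0.047 of Col1a2, so Col1a2 had the higher transcript level per length although alpha 1 is the major chain of the type I protein. Col3a1 was at 0.647 ± 0.041 of Col1a1, Col5a1 at 0.860 ± 0.129 of Col5a2 and Col8a1 at 1.72 ± 0.376 times Col8a2. The ratio of Col8a1 to Col8a2 averaged 1.36 ± 0.220 at ZT14 and 1.93 ± 0.239 at ZT2 (SD, n = 3 each). Col6a3 was at 0.278 ± 0.040 of Col6a1, Col9a3 at 0.282 ± 0.035 of Col9a2, Col4a3 at 0.605 ± 0.085 of Col4a4 and Col11a1 at 4.63 ± 0.882 times Col11a2. The coefficient of variation of the ratio was barely above that of Col4a3 for Col4a3 and Col4a4 (14.0%, against 13.9%). For Col11a1 and Col11a2 it was above that of either gene (19.0%, against 14.4% for Col11a1). Col4a3 rests on about 54.4 read pairs per library, so its ratio and its correlation below carry counting error.

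**Figure D4:**
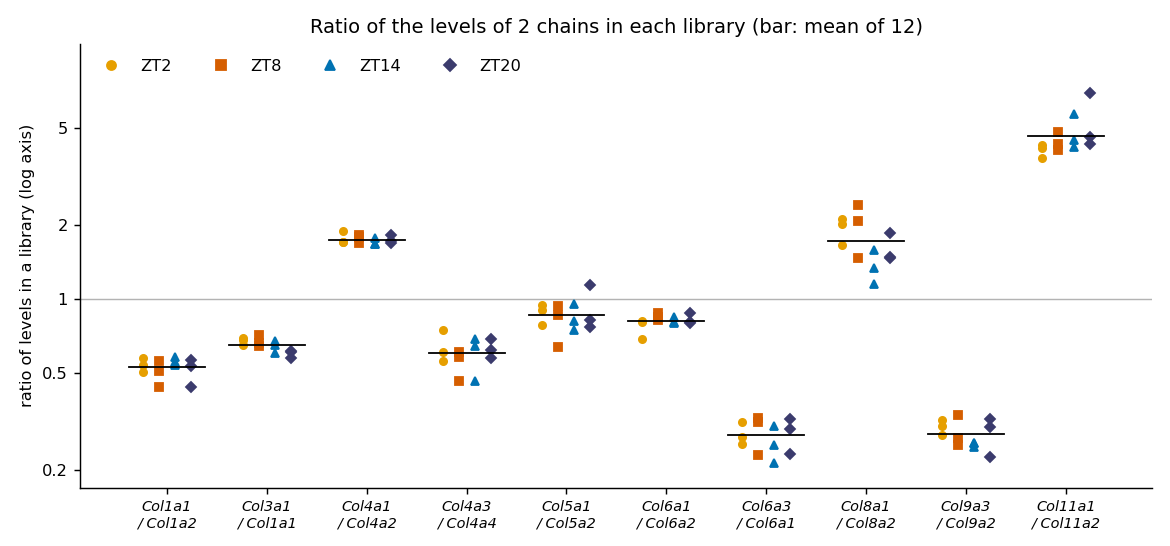
Ratio of the levels of 10 pairs of collagen chains (log axis) in each of the 12 libraries, coloured by ZT2, ZT8, ZT14 and ZT20, with a bar at the mean. The ratio of Col4a1 to Col4a2 stays between 1.68 and 1.90, while that of Col11a1 to Col11a2 spans 3.77 to 6.97.

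In 6 of the 10 pairs the levels also moved together across the 12 libraries. The share of other gene pairs that would pass was not computed, so this count does not set partner chains apart from other genes. The pairs form a family of 10 relations of log2 CPM, with two-sided permutation tests (100000 permutations) and Benjamini-Hochberg adjustment. Pearson's r was 0.98 for Col1a1 and Col1a2 (permutation p = 1e-05, the smallest the permutations can give, adjusted p = 0.0001; rho 0.99, p = 1e-05). It was 0.96 for Col6a1 and Col6a2 (permutation p = 2e-05, adjusted p = 0.0001, rho 0.94, p = 5e-05) and 0.95 for Col3a1 and Col1a1 (permutation p = 5e-05, adjusted p = 0.000167, rho 0.85, p = 0.00096). For Col4a1 and Col4a2 r was 0.87 (permutation p = 0.00027, adjusted p = 0.000675, rho 0.85, p = 0.00101). For Col6a3 and Col6a1 it was 0.81 (permutation p = 0.00075, adjusted p = 0.0015, rho 0.85, p = 0.00065), and for Col8a1 and Col8a2 0.80 (permutation p = 0.00159, adjusted p = 0.00265, rho 0.77, p = 0.00492). Without the 2 libraries farthest from the median of the gene on the x axis, these r were 0.98, 0.94, 0.86, 0.76, 0.62 and 0.76 in that order. Within times, as deviations from the mean of each time, r was 0.99, 0.98 and 0.98 for the first 3 pairs, all past an adjusted exact permutation p of 0.05. Within times the other 3 did not pass, with r 0.80 for Col4a1 and Col4a2 (adjusted exact permutation p = 0.0617), 0.70 for Col6a3 and Col6a1 (0.125) and 0.74 for Col8a1 and Col8a2 (0.0617). Over all libraries 4 pairs did not pass: r was 0.49 for Col9a3 and Col9a2 (adjusted permutation p = 0.156, rho 0.44), 0.30 for Col4a3 and Col4a4 (0.432, rho 0.50), 0.11 for Col5a1 and Col5a2 (0.739, rho -0.10) and -0.14 for Col11a1 and Col11a2 (0.726, rho 0.098).

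Collagen levels moved with fibroblast transcripts between libraries in 10 members, most of them fibrillar and beaded filament genes. The 10 fibroblast markers, which include no collagen, were all in the fit, with Dcn highest at 445 CPM and none near 0. Dcn and Lum among them are also listed below as partners of collagen in fibrils. The score, and the fits that use it, therefore rest partly on genes that act with collagen. They summed to 771 to 919 CPM at ZT2, 699 to 1058 CPM at ZT8, 882 to 1016 CPM at ZT14 and 785 to 1067 CPM at ZT20. In a family of 78 relations, the 39 members against the fibroblast and the skeletal muscle scores, 10 members had a positive and 1 a negative Pearson's r with the fibroblast score at an adjusted permutation p under 0.05. The share of all genes that would pass with either score was not computed, over all libraries or within times. The counts of members here and below therefore do not set collagen genes apart from other genes. The 10 were Col1a1, Col1a2, Col3a1, Col5a1 and Col27a1 of the 11 fibrillar genes, Col6a1, Col6a2 and Col6a3 of the 5 beaded filament genes, Col12a1 of the 7 FACITs and Col8a2 of the 3 short-chain genes. Their r ranged from 0.69 (Col5a1) to 0.95 (Col6a1) and from 0.61 (Col27a1) to 0.94 (Col6a1) without the 2 farthest libraries. Their rho ranged from 0.67 to 0.97 and passed in 9 of the 10, with Col27a1 at an adjusted permutation p of 0.0621. The negative member was Col5a3. By r over all 12 libraries, none of the 5 type IV genes, the 2 multiplexins, the 3 transmembrane genes, Col28a1, Col26a1 or Col7a1 passed, with a median r of -0.05 over the type IV genes. Without the 2 farthest libraries r was 0.42 for Col4a1 and 0.34 for Col4a2. By rho, Col14a1 (rho 0.71, adjusted permutation p = 0.0461) and Col7a1 (rho -0.73, adjusted permutation p = 0.0414) also passed.

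Col6a1 followed the score most closely. Its r was 0.95 and its rho 0.97 (unadjusted permutation p = 1e-05 for each, adjusted p = 0.00078), r was 0.94 without the 2 farthest libraries (ZT8 replicate 3 and ZT14 replicate 1), and within times it was 0.99 (exact permutation p = 0.000772, the smallest that 1296 arrangements of the libraries within times allow). For Col1a1 r was 0.86 (adjusted permutation p = 0.0041) and rho 0.91 (adjusted permutation p = 0.00429), with 0.89 without the 2 farthest libraries and 0.93 within times. For Col5a3 r was -0.72 (adjusted permutation p = 0.0342), with -0.59 without the 2 farthest libraries, and rho was -0.62 (adjusted permutation p = 0.0941). Within times, an alternative chosen after seeing the data, 7 members were positive at an adjusted exact permutation p under 0.05, namely Col1a1, Col1a2, Col5a1, Col6a1, Col6a2, Col8a2 and Col14a1, and Col28a1 was negative with r -0.89. Of the 11 members called over all libraries, 6 were also called within times.

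Other cell types moved with the fibroblast score. Over the 12 libraries its r was 0.93 with the perineurial score, 0.88 with the adipocyte score, 0.84 with the smooth muscle and pericyte score, 0.79 with the skeletal muscle score, 0.74 with the myelinating Schwann cell score and 0.63 with the endothelial score, against -0.14 with the satellite glia score and -0.12 with the neuron score. These are a family of 8 relations with two-sided permutation tests. The first 6 passed, with an adjusted permutation p between 0.00016 and 0.0407 and rho between 0.62 and 0.92, and the last 2 did not (adjusted permutation p = 0.708 for each, rho -0.13 and -0.07). Within times the myelinating Schwann cell score (r 0.75, adjusted exact permutation p = 0.0938) and the endothelial score (r 0.69, 0.110) did not pass, while the others of the first 6 did. Without the library richest in muscle at each time, r was 0.33 for the endothelial score and -0.64 for the neuron score. The others of the first 6 then had r between 0.60 and 0.84. The part of each cell type in the levels of the members was not tested. All 12 skeletal muscle markers were in the fit, and they summed to 232 to 551 CPM at ZT2, 249 to 583 CPM at ZT8, 304 to 635 CPM at ZT14 and 192 to 1185 CPM at ZT20. With the muscle score, 7 members had a positive r at an adjusted permutation p under 0.05 and 0 a negative one. Without the library richest in muscle at each time, which leaves 8 libraries and was also chosen after seeing the data for this relation, r with the fibroblast score was 0.95 for Col6a1, 0.88 for Col1a1 and -0.31 for Col5a3, and all 10 positive members stayed above 0, the lowest being Col27a1 at 0.38 (0.75 over all libraries). The type IV values moved: in these 8 libraries r was 0.67 for Col4a1 and 0.73 for Col4a2, against 0.04 and -0.07 over all 12 libraries, so the difference from the fibrillar and beaded filament genes depends on which libraries enter. Col8a1, which had r 0.69 over all libraries and did not pass, had r 0.93 in the 8. With the fibroblast score as a covariate in edgeR, chosen after seeing the data, 0 members were called in any of the 5 tests. The lowest adjusted p was then 0.0787, for Col6a2 in the test of any difference, and 12 of 39 members had an unadjusted p under 0.05 against 13.1% of all genes.

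**Figure D5:**
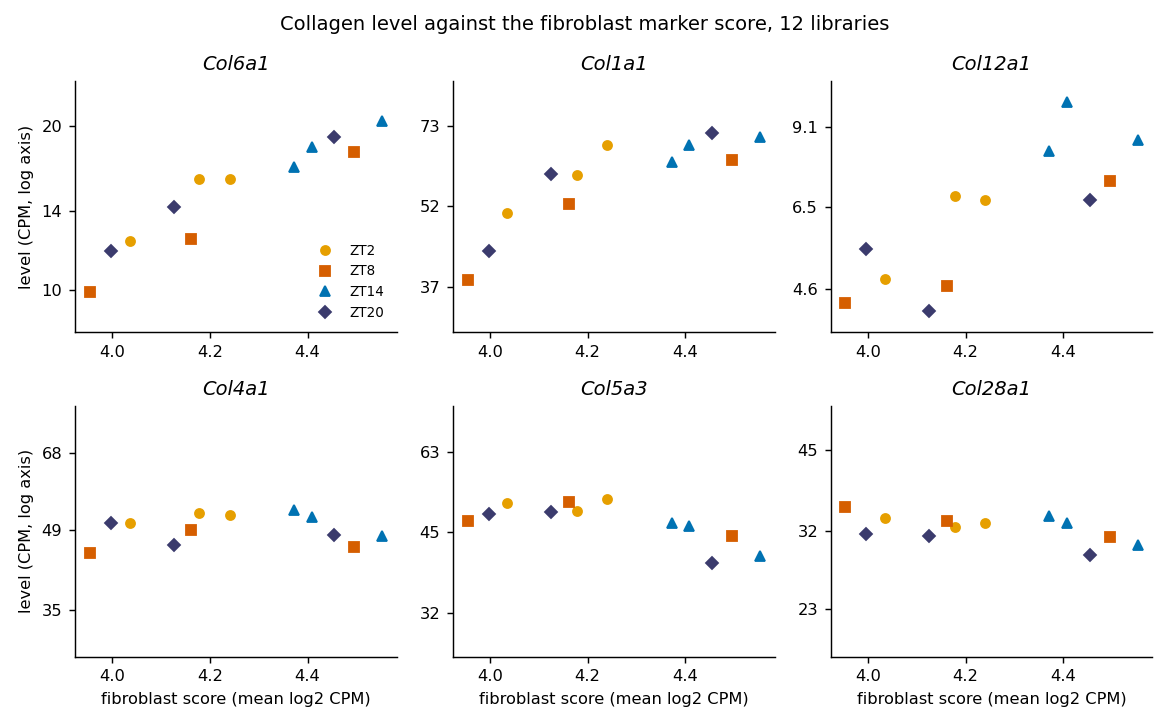
Level (CPM, log axis spanning the same fold range in each panel) of 6 collagen genes against the fibroblast score (mean log2 CPM of 10 markers) in 12 libraries, coloured by ZT2, ZT8, ZT14 and ZT20. Col6a1 (r 0.95) and Col1a1 (r 0.86) rise with the score over the 12 libraries and Col5a3 (r -0.72) falls, while Col4a1 has r 0.04, and 0.67 without the library richest in muscle at each time.

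Genes that make, cut, bind or degrade collagen were not called by edgeR or limma-trend, and a few were called by DESeq2. Of 88 listed symbols in 6 groups, 84 were in the fit, and edgeR and limma-trend each called 0 in every one of the 5 tests. The listed symbols Ctgf and Ccn2 name the same gene, found here as Ccn2. At an unadjusted p under 0.05 for any difference between times, edgeR listed 17 of the 84 (20.2%), against 6.19% of all genes. DESeq2 called 7 of the 84 for any difference (1.13% of all genes), namely Serpinh1, P4ha1, Nid1, Mmp14, Mmp8, Mmp9 and Ccn2, and the edgeR adjusted p of these ranged from 0.328 to 0.634. DESeq2 also called Mmp8 and Ccn2 for the 24-h component (0.632% of all genes) and Nid1 and Serpinh1 for the alternation (0.484%). It called Mmp8 for ZT20 against ZT8 (0.263% of all genes) and 0 for ZT14 against ZT2 (0.411%). By group the 17 genes that edgeR listed were 3 of 20 genes of chain modification and folding, 1 of 14 of propeptide cleavage and crosslinking, 2 of 11 collagen receptors, 5 of 12 of degradation and its inhibitors, 4 of 16 partners in fibrils and basement membranes, and 2 of 11 of the TGF-beta pathway. The highest gene of each group was Ppib, a prolyl isomerase of the endoplasmic reticulum, at 139 CPM, Pcolce, which speeds propeptide cleavage, at 34.3 CPM, the integrin subunit Itgb1 at 189 CPM, the metalloproteinase inhibitor Timp2 at 947 CPM, the collagen-binding protein Sparc at 877 CPM and the signal mediator Smad4 at 23.97 CPM. Their log2 differences for ZT14 over ZT2 lay between -0.05 for Smad4 and 0.26 for Pcolce.

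The 7 genes that DESeq2 called are described here after their values were seen. Serpinh1, the chaperone that binds the collagen helix in the endoplasmic reticulum, averaged 98.0 ± 4.93 CPM at ZT2, 62.8 ± 12.4 CPM at ZT8, 77.9 ± 7.42 CPM at ZT14 and 76.6 ± 5.45 CPM at ZT20 (SD, n = 3 each), with an edgeR adjusted p of 0.3997 for any difference. P4ha1, a catalytic subunit of prolyl 4-hydroxylase, averaged 34.9 ± 1.41 CPM at ZT2, 28.2 ± 1.62 CPM at ZT8, 31.5 ± 2.52 CPM at ZT14 and 32.6 ± 0.911 CPM at ZT20 (SD, n = 3 each), with an edgeR adjusted p of 0.454. Mmp14, a membrane-bound collagenase, averaged 22.3 ± 1.89 CPM at ZT2, 18.1 ± 0.965 CPM at ZT8, 19.7 ± 0.581 CPM at ZT14 and 21.2 ± 0.668 CPM at ZT20 (SD, n = 3 each). These 3 were highest at ZT2 and lowest at ZT8. Nid1, a basement membrane protein that links laminin to type IV collagen, averaged 38.2 ± 1.51 CPM at ZT2, 34.2 ± 1.36 CPM at ZT8, 42.1 ± 3.39 CPM at ZT14 and 35.1 ± 1.37 CPM at ZT20 (SD, n = 3 each), so its means alternated as those of Col4a1 and Col4a2 did. Ccn2, a matricellular protein induced by TGF-beta, averaged 6.51 ± 2.08 CPM at ZT2, 9.70 ± 1.87 CPM at ZT8, 12.6 ± 2.80 CPM at ZT14 and 6.79 ± 1.55 CPM at ZT20 (SD, n = 3 each). Col12a1 and Col8a2 were also highest at ZT14, but their lowest means were at ZT8 (5.41 and 2.03 CPM), where Ccn2 was second highest. Mmp8, the neutrophil collagenase, averaged 1.07 ± 0.448 CPM at ZT2, 1.34 ± 0.358 CPM at ZT8, 1.44 ± 0.421 CPM at ZT14 and 0.333 ± 0.1299 CPM at ZT20 (SD, n = 3 each). Mmp9, a gelatinase, averaged 1.21 ± 0.441 CPM at ZT2, 1.05 ± 0.039 CPM at ZT8, 1.61 ± 0.426 CPM at ZT14 and 0.651 ± 0.077 CPM at ZT20 (SD, n = 3 each), so both means were highest at ZT14 and lowest at ZT20. Of 8 listed red cell markers, 7 were found, all in the fit. The summed level of these 7 was 1665 to 3993 CPM at ZT2, 2215 to 2407 CPM at ZT8, 3691 to 4040 CPM at ZT14 and 781 to 1232 CPM at ZT20. The part of blood in the levels of Mmp8 and Mmp9 was not tested.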

How the data were processed

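Paired 150-base reads of poly(A) RNA from 12 libraries were, per the submitters' processing notes, handled with HISAT2 2.2.1 and StringTie 2.1.5 on GRCm38.p6. The sources used here state neither the role of each tool nor the annotation. In the deposited table the authors give estimated counts that are not whole (99.7% of the values above 0 differ from a whole number by more than 0.001) and do not grow with gene length, so read depth is approximate and counting error is not modelled exactly. They were rounded. Assembled loci (348 rows, 0.203% to 0.231% of a library) were left out. Symbols and coordinates came from GENCODE M21, which 38462 of 38594 IDs matched. The test was edgeR 4.0.16 (R 4.3.3; filterByExpr, TMM, robust quasi-likelihood fit, 1 model of 4 times, no covariate), checked on simulated data; adjusted p are Benjamini-Hochberg values over 25809 genes with a threshold of 0.05. CPM uses TMM-scaled library sizes; log2 CPM has a prior count of 2. Limma-trend (limma 3.58.1) and DESeq2 1.42.0 were alternatives. Correlations were tested by permutation in Python 3.11.15 with scipy 1.17.1. Values in every library are given for the members of lowest p (3 each in the tests of any difference and of the 24-h component), the highest of each class and partner chains of at least 5 CPM. Col5a3, in every library, and Col25a1 and Col26a1, by range or mean, were added after their values were seen. The members, classes and gene lists were chosen with earlier results of these data known. The main fit did not pair the libraries by replicate number.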

Additional observations from a re-analysis of the deposited data

How the results depend on the processing

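The count of members called was 0 in each of the 5 tests by edgeR and remained 0 in every alternative run: 21 for the tests over 4 times and 22 for the contrasts of 2 times. These were RLE normalization, no filter on low counts, limma-trend, DESeq2, the muscle score as a covariate, approximate read pairs, the 8 libraries left without the richest in muscle at each time, each library left out in turn, the 2 times alone for the contrasts, the replicate number as a block, and, chosen after seeing the data, the fibroblast score as a covariate. Leaving out each library in turn gave 0 members throughout, with 1 to 6 at an unadjusted p under 0.05 for any difference, 0 to 5 for the 24-h component, 4 to 9 for the alternation, 0 to 4 for ZT14 against ZT2 and 0 to 4 for ZT20 against ZT8. The shares of all genes at that threshold are not given for these runs. With all 12 libraries they were 6.19%, 5.2%, 7.44%, 5.19% and 5.28% in the same order of tests. Among the 84 collagen pathway genes DESeq2 called 7 for any difference, and edgeR and limma-trend 0. Over all genes the counts depended on the tool: for any difference DESeq2 called 292, limma-trend 19 and edgeR 13, for the 24-h component 163, 17 and 17, for the alternation 125, 0 and 0, for ZT14 against ZT2 106, 16 and 12, and for ZT20 against ZT8 68, 6 and 6.

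With the replicate number as a block, 0 members were called, and the counts over all genes were 7, 4, 0, 5 and 2 in the 5 tests. Correlations of deviations lay between -0.065 and 0.078 over 18 pairs of the same number (median 0.013). Over 36 pairs of other numbers they lay between -0.087 and 0.133 (median 0.006). Of the 12 libraries, 6 correlated better with their own number. No pairing by number was seen, though these correlations cannot exclude one.

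A limit of 1 CPM left 32 members in place of 39. The ratios of partner chains moved by less than 1 SD without any library, from 0.523 to 0.536 for Col1a1 to Col1a2 and from 1.74 to 1.76 for Col4a1 to Col4a2; they were not recomputed on approximate read pairs, where dividing by length returns the same values. Without the libraries richest in muscle, r with the fibroblast score was 0.67 for Col4a1 and 0.73 for Col4a2, against 0.04 and -0.07 over all libraries. The r of Col28a1 with the fibroblast score was -0.57 over all libraries, -0.01 without the libraries richest in muscle and -0.89 within times. Counting error limits the 7 members below 1 CPM.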
